A study of Mus musculus with 8 samples.

Results

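The loss of CIS in natural killer (NK) cells was measured here as 1 effect averaged over 2 states, cells taken straight from mice and cells kept in vitro. For every gene the average effect was the mean of the ex vivo and in vitro log2 differences between CIS-null and wild-type libraries, so that each state carried the same weight and 4 libraries stood on each side. All 8 libraries of the series entered the comparison, and it covered the 12397 autosomal genes among the 13184 genes with enough counts to test. The groups were wild-type C57BL/6 NK cells ex vivo, CIS-/- C57BL/6 NK cells ex vivo, wild-type C57BL/6 NK cells in vitro and CIS-/- C57BL/6 NK cells in vitro, with 2 libraries each. All cells came from spleen, bone marrow and blood and were purified with beads against CD49b, the integrin chain that the DX5 antibody binds. The age of the mice, the design of the CIS-/- allele, the number of mice pooled, and the medium and length of the culture were not given in the sources used here. The labels do not say whether the 2 libraries of a group came from separate mice or cultures, so every p-value measures only the spread between these libraries, which may be technical.

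CIS is the protein of the Cish gene and a member of the SOCS family, whose members carry an SH2 domain and a SOCS box and damp cytokine receptors. Cytokines such as interleukin 2 and interleukin 15 activate JAK1 and JAK3 at the receptor, the kinases phosphorylate STAT5, and STAT5 enters the nucleus and switches on genes that include Cish itself. CIS thereby forms a feedback loop on the signal that NK cells need for survival, division and cytotoxic function, and the series addresses CIS as a checkpoint on these cells.

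Each library held 21.5 to 28.1 M read counts. The 12 NK markers, among them Ncr1, Klrb1c, Eomes, Gzma and Prf1, summed to 29339 to 32669 CPM (read counts scaled to library size) ex vivo and to 21221 to 36699 CPM in vitro. Gzma alone gave most of the in vitro sums, with 13997 and 11678 CPM in wild-type and 20327 and 25875 CPM in CIS-null libraries. The members did not move as 1, and edgeR called 3 of the 12 higher and 2 lower for the average. Ex vivo, B cell markers summed to 34.5 and 29.6 CPM in wild-type libraries and to 95.8 and 16.9 CPM in CIS-null ones, and to under 1 CPM in every in vitro library. The 2 CIS-null ex vivo libraries thus differed from each other in B cell RNA, and 0 of 9 tested B cell markers were called by edgeR or had an unadjusted p under 0.05. Xist, the RNA that coats the inactive X chromosome in female cells, was ex vivo at 120 and 162 CPM in wild-type and at 0.322 and 0.197 CPM in CIS-null libraries. In vitro Xist was at 0 and 0.0351 CPM in the wild-type libraries and at 131 and 89.7 CPM in the CIS-null ones. The Y-linked gene Ddx3y went the other way, with 44.1 and 28.1 CPM in wild-type and 67.4 and 111 CPM in CIS-null libraries ex vivo, and 79.3 and 82.6 CPM in wild-type against 0 and 0.04 CPM in CIS-null libraries in vitro. The wild-type ex vivo libraries thus held both kinds of transcript, and the other 3 groups held almost entirely 1 kind. In each state the sex-linked transcripts followed the genotype, so the 2 cannot be told apart, and the order ex vivo was the opposite. The average takes 1 state of each order and does not balance them, since the wild-type ex vivo libraries were mixed.

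Cish itself was lower in CIS-null libraries of both states. Ex vivo it stood at 9.26 and 9.12 CPM in wild-type and at 1.29 and 2.64 CPM in CIS-null libraries. In vitro it stood at 220 and 202 CPM in the wild-type libraries and at 21.2 and 17.2 CPM in the CIS-null ones. Every CIS-null library lay below every wild-type library of its state, and reads over the gene remained in all 4 of them. The average effect was a log2 fold change of -2.83 (SE 0.155, edgeR quasi-likelihood test with Benjamini-Hochberg adjustment, adjusted p = 0.00019), a 7.09-fold lower level. The effect was -2.20 ex vivo and -3.46 in vitro, and the difference between the states did not pass the test (adjusted p = 0.117 in edgeR).

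STAT5 binds the palindrome TTCNNNGAA, which reads the same on both strands. The 250 bases before the RefSeq start (GRCm38.p6, plus strand) are shown for Cish, the targeted gene, and for 2 genes whose average was higher and whose window holds the motif, in capitals. These are Tnfrsf9, which encodes the costimulatory receptor 4-1BB and stands in the STAT5 target list, and Cd3d, which encodes the delta chain of the CD3 complex. Both were chosen for these traits. Of the 99 genes picked by the naming rule that have a RefSeq window, 8 held the motif. The others were Isg20 and Psmb8, with higher averages, and Bach2, Ifit2, Mtor and Zeb2, with lower ones. The Cish window is chr9:107296409-107296658, the Tnfrsf9 window is chr4:150927749-150927998, from the second of its 2 annotated starts, and the Cd3d window is chr9:44981536-44981785.
Cish: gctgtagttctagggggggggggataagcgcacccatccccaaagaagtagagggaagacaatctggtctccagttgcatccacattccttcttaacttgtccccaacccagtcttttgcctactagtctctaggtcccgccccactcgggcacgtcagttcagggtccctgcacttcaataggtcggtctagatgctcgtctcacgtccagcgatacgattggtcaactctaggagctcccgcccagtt
Tnfrsf9: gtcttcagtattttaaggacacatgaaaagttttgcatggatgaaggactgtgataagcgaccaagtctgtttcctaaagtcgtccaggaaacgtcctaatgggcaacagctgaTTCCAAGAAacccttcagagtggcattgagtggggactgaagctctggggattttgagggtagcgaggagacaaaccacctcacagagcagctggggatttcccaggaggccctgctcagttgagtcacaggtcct
Cd3d: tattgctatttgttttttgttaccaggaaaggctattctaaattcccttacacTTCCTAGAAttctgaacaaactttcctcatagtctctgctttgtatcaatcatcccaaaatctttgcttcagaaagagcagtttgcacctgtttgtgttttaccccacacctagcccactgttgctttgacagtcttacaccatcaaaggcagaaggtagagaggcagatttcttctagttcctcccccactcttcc
The Cish window and the window of the first Tnfrsf9 start hold no match to these letters. Among tested autosomal genes with a RefSeq window, 697 of 9647 (7.23%) held the motif. A gene was counted when any of its windows matched. The motif was held by 55 of 576 genes (9.55%) called higher for the average and by 68 of 934 genes (7.28%) called lower. A match is a description of the letters and not a bound site.

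A gene was called when its average effect had an adjusted p under 0.05 over all tested genes. The average was called for 1935 autosomal genes (15.6% of those tested), 770 higher in CIS-null cells (6.21%) and 1165 lower (9.4%), and 4391 had an unadjusted p under 0.05. At least 2-fold changes were few, with 66 genes higher and 65 lower. The median log2 effect was 0.36 among the higher genes and -0.51 among the lower ones. The same sign in both states was seen for 1843 of the 1935 genes (95.2%), beside 65.1% of all autosomal genes tested. A call on the average favours genes whose 2 effects have the same sign, so a higher share is built into the choice. A stricter count asked in addition that the CIS-null libraries lie all above or all below the wild-type libraries in each state. It held for 1288 genes (10.4% of those tested), 535 higher (4.32%) and 753 lower (6.07%), and these are called separate in both states from here on. Without asking for a call, the genotypes lay apart in the same direction in both states for 2760 of the 12397 autosomal genes.

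The averaged effect was mostly an in vitro effect in size. The median absolute log2 effect of the called genes was 0.20 ex vivo and 0.68 in vitro, and it was larger in vitro for 1845 genes and larger ex vivo for 90. Alone, the ex vivo comparison called 7 autosomal genes (0.0565%) and the in vitro comparison 3257 (26.3%). Of the average calls 1802 (93.1%) were also called in vitro, which was 55.3% of the in vitro calls. The difference between the state effects passed its own test for 11 autosomal genes (0.0887%), 9 of them average calls. Across autosomal genes the 2 state effects had a Spearman correlation of 0.365, which describes genes of the same 8 libraries and carries no p. The plot of both state effects shows the calls stretched along the in vitro axis.

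**Figure D1:**
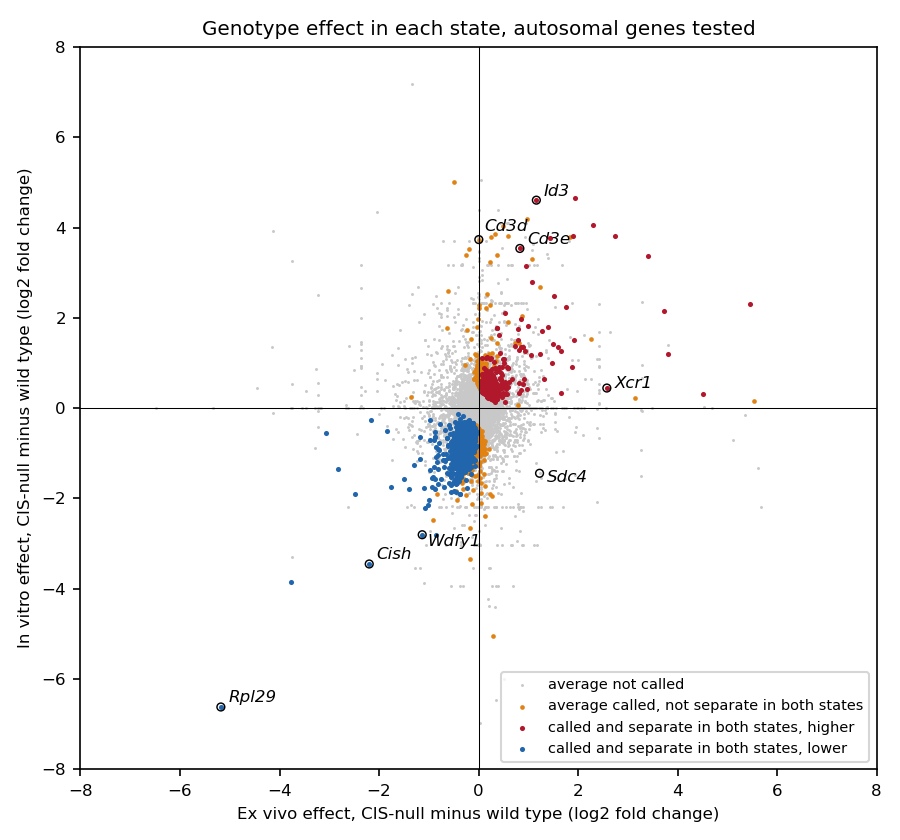
Each point is 1 of 12397 autosomal genes, with its ex vivo log2 effect on the horizontal axis and its in vitro log2 effect on the vertical axis. Red and blue mark the 535 higher and 753 lower genes separate in both states, orange the other called genes and grey those not called, and most coloured points lie farther from 0 on the in vitro axis.

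The number of calls rested on the ex vivo wild-type libraries more than on any other. It was 19 without wild-type ex vivo replicate 1 and 9 without replicate 2, and leaving out any of the other 6 libraries gave 368 to 3434 calls. A model with 1 common genotype effect and 1 state effect called 47 genes. Gene length moved with the average. The median length was 1703 bases for higher genes, 5314 for lower genes and 2721 for all, and the Spearman correlation between length and average over genes was -0.46. Libraries of 1 group also differed in this way, and the correlation between length and the difference of the 2 CIS-null replicates was 0.37 ex vivo and -0.45 in vitro. Removing each library's trend with length gave 1695 calls, 912 higher and 783 lower, of which 1140 were calls in the same direction before, and the correlation with length was then 0.00999. The share of higher genes among the calls was 39.8% as scaled and 53.8% with the trend removed, and with scaling by library totals it was 17.5%. The part of RNA length or quality in the average was not tested further.

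**Figure D2:**
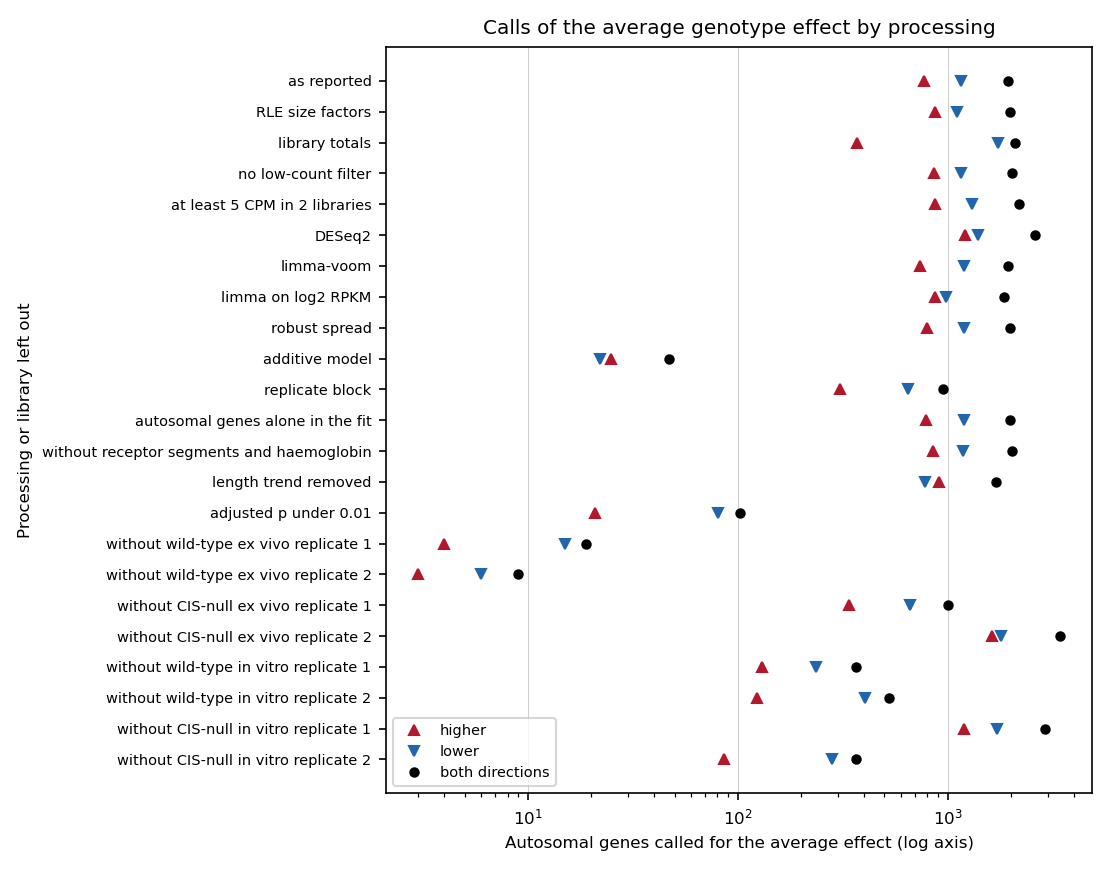
Number of autosomal genes called for the average effect on a log axis, for the reported fit, for 14 other ways of processing and for each library left out. Black points give both directions, red triangles higher and blue triangles lower, and the smallest counts are 19 and 9 without either wild-type ex vivo library.

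Among genes separate in both states, the 12 per direction with the largest lesser state effect and a mean of at least 5 CPM were taken. The first higher gene was Mcpt8, a granule protease best known from basophils. It was at 0.589 and 0.789 CPM in wild-type and at 3.45 and 1.89 CPM in CIS-null libraries ex vivo, and at 12.4 and 15.4 CPM in wild-type and 29.9 and 49.4 CPM in CIS-null libraries in vitro. The genotypes did not overlap in either state, and the average effect was 1.72 (SE 0.262, edgeR adjusted p = 0.0114). Alox5, the lipoxygenase that starts leukotriene synthesis, went from 0.968 and 0.553 to 2.67 and 1.65 CPM ex vivo and from 40.4 and 32.9 to 100 and 96.8 CPM in vitro. Its average effect was 1.46 (SE 0.186, edgeR adjusted p = 0.00827), with 1.49 ex vivo and 1.43 in vitro, so the states were nearly equal on the log2 scale. C5ar1, the receptor for the complement fragment C5a, averaged 1.24, but its ex vivo levels were 0.316 to 1.06 CPM and rested on 8 to 23 counts a library.

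Basophil and mast cell markers moved with these genes ex vivo. The 8 markers with enough counts to test summed to 11.5 and 9.31 CPM in wild-type and to 41.5 and 19 CPM in CIS-null ex vivo libraries, and without Mcpt8 the sums of the other 7 were 10.9 and 8.53 against 38 and 17.2 CPM. In vitro the sums without Mcpt8 were 16.5 and 22.1 CPM in wild-type and 22 and 24.8 CPM in CIS-null libraries. There the defining markers Ms4a2, Fcer1a and Prss34 had 0 counts in all 4 libraries, and the remaining sum was mostly Cpa3, at 14.4 to 22.2 CPM. Of the 8 markers only Mcpt8 was called, beside 6.21% of all genes called higher. In bulk RNA, more cells of a type and more RNA per cell cannot be told apart, and the part of basophil RNA in the ex vivo effects was not tested.

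Ifitm1, an interferon-inducible membrane protein that restricts virus entry, was at 2.65 and 1.97 CPM in wild-type and 9.07 and 5.04 CPM in CIS-null libraries ex vivo, and at 234 and 263 against 516 and 743 CPM in vitro. Its neighbour in the family, Ifitm2, went from 0.715 and 0.632 to 1.38 and 1.02 CPM ex vivo and from 160 and 176 to 335 and 478 CPM in vitro. Both were separate in both states, with average effects of 1.47 for Ifitm1 (edgeR adjusted p = 0.00964) and 1.05 for Ifitm2 (edgeR adjusted p = 0.0202).

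Cxcr6, the receptor for CXCL16 that marks liver-homing and tissue-resident lymphocytes, was at 6.02 and 7.03 CPM in wild-type and 22.7 and 25.4 CPM in CIS-null libraries ex vivo. In vitro it was at 269 and 417 against 629 and 651 CPM. The average effect was 1.39 (SE 0.142, edgeR adjusted p = 0.00579), with 1.88 ex vivo and 0.90 in vitro. Xcr1, the receptor for XCL1, lies beside Cxcr6 on chromosome 9 and was higher too, with an average of 1.51, 2.58 ex vivo and 0.44 in vitro. Its ex vivo levels were 0.126 and 0.197 CPM in wild-type and 0.967 and 1.02 CPM in CIS-null libraries.

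Ly6c2, which encodes the Ly6C antigen of mature NK cells, was abundant ex vivo. It stood at 444 and 507 CPM in wild-type and 814 and 914 CPM in CIS-null libraries ex vivo, and at 29.7 and 26.1 against 94.1 and 125 CPM in vitro. The average effect was 1.42 (SE 0.108, edgeR adjusted p = 0.00107). Its near-identical copy Ly6c1 can share its reads, so the value is uncertain. Kcnj8, a subunit of the ATP-sensitive potassium channel, was likewise separate in both states, at 112 and 159 against 236 and 255 CPM ex vivo and at 4.76 and 3.02 against 10.1 and 9.81 CPM in vitro. Tmem158, a Ras-induced membrane protein, averaged 1.46 with libraries between 2.78 and 10.1 CPM. Pilrb1, an activating paired receptor whose paralog may share reads, averaged 1.05, and Gpr56, an adhesion receptor of cytotoxic lymphocytes, averaged 0.99.

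The 3 CD3 genes of the T cell receptor complex were called higher, with the larger effects in vitro. Cd3e, a signalling chain of CD3, was at 2.69 and 3.35 CPM in wild-type and 5.85 and 4.96 CPM in CIS-null libraries ex vivo, and at 9.87 and 3.51 against 86.6 and 68.8 CPM in vitro, with an average of 2.18 (SE 0.285, edgeR adjusted p = 0.00833). Cd3d was at 10.5 and 15.2 against 18.9 and 7.12 CPM ex vivo, where the genotypes overlapped, and at 28.1 and 10.4 against 241 and 272 CPM in vitro. Its average of 1.87 thus came from an effect of 0.01 ex vivo and 3.73 in vitro. Cd3g averaged 0.57 with -0.63 ex vivo and 1.77 in vitro, a difference between states that passed the test (edgeR adjusted p = 0.0296). With the length trend removed Cd3g averaged 0.39 and was not called (edgeR adjusted p = 0.0693), while Cd3d and Cd3e kept their calls.

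Of the 12 T cell markers 5 were called higher and 0 lower by edgeR, with 7 under an unadjusted p of 0.05 and 5 higher in DESeq2, beside 6.21% of all genes called higher. Removing the length trend gave 3 higher calls, without Cd3g and Lat (0.20, edgeR adjusted p = 0.0531). Besides the CD3 chains these were Cd8a and Lat, a scaffold of antigen receptor signalling that NK cells express as well. In vitro the 3 CD3 chains summed to 168 and 161 CPM in wild-type and to 824 and 791 CPM in CIS-null libraries. The other 9 T cell markers summed to 153 and 120 against 182 and 213 CPM there, most of it Cd28 and Lat, with Cd4 at 0 to 0.104 CPM and Cd8a at 9.02 and 6.21 CPM in the CIS-null libraries. Of 137 immunoglobulin and T cell receptor segments tested 32 were called, 31 of them higher, beside 15.6% and 6.21% of all genes. Immunoglobulin and T cell receptor segments were not counted apart. Tcrg-V4, a gamma chain segment named after its values were seen, was at 1.98 and 1.26 CPM in wild-type and 22.8 and 22.7 CPM in CIS-null libraries in vitro. The part of T cell RNA in these effects was not tested.

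**Figure D3:**
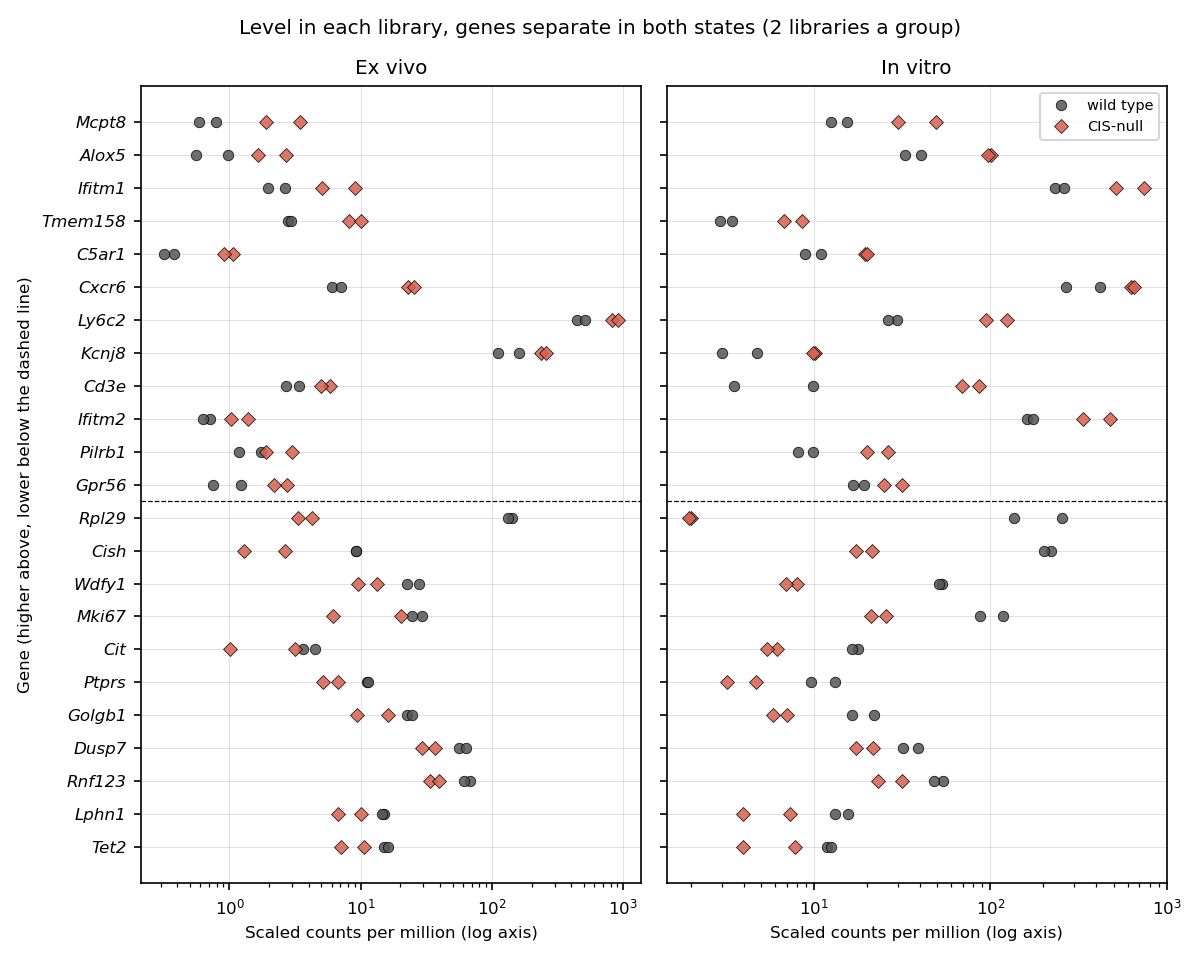
Scaled CPM on a log axis in each library, ex vivo on the left and in vitro on the right, for the 12 higher genes above and 11 of the lower genes below the dashed line. Grey circles are the 2 wild-type and red diamonds the 2 CIS-null libraries of the state. The genes were chosen to have no overlap between the genotypes in either panel.

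Among the lower genes Rpl29, which encodes a component of the large subunit of the ribosome, had the largest change. It was at 142 and 132 CPM in wild-type and 4.28 and 3.3 CPM in CIS-null libraries ex vivo, and at 255 and 137 against 2 and 1.96 CPM in vitro. The average effect was -5.90 (SE 0.231, edgeR adjusted p = 3.52e-05), a 59.8-fold lower level. The gene lies 0.865 Mb from Cish. Ribosomal protein genes have many processed copies that can share reads, so the size is uncertain. Of the 30 cytosolic ribosomal protein genes tested it was the only one called by edgeR, and the median average effect of the list was 0.26, and 0.04 with the length trend removed.

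Wdfy1, an endosomal adaptor of Toll-like receptor signalling on chromosome 1, was at 27.8 and 22.3 CPM in wild-type and 9.53 and 13.2 CPM in CIS-null libraries ex vivo, and at 53.3 and 50.9 against 7.98 and 6.89 CPM in vitro. The average effect was -1.97 (SE 0.124, edgeR adjusted p = 0.000468).

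Mki67, the Ki-67 antigen of dividing cells, averaged -1.58 (SE 0.294, edgeR adjusted p = 0.0174). Its ex vivo levels were 24.7 and 29.4 CPM in wild-type and 6.13 and 20.4 CPM in CIS-null libraries, so the 2 CIS-null libraries differed more from each other than the second did from wild type. In vitro it was at 118 and 87.5 against 25.5 and 21 CPM. Cit, the citron kinase of cytokinesis, averaged -1.25 with the same spread ex vivo, at 1.01 and 3.15 CPM in CIS-null libraries. Ptprs, a receptor tyrosine phosphatase, averaged -1.22, Golgb1, the Golgi tether giantin, -1.22 (-0.77 with the length trend removed), and Lphn1, an adhesion receptor, -1.08. Tet2, a DNA demethylase, averaged -0.93 and -0.56 with the length trend removed. Dusp7, a phosphatase of ERK, and Rnf123, a ubiquitin ligase, both lie within 1 Mb of Cish and had nearly equal effects in both states, with averages of -0.86 each. Golgb1, Mki67 and Tet2 are long transcripts, of 11025, 10075 and 9181 bases.

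Calls that survived every change of processing were few. Of the 1935 genes 7 kept the call and the direction under 13 other ways of processing and without each of the 8 libraries in turn. Among them were Rpl29, Cish, Wdfy1, Ankrd11 and Tmem181b-ps, all lower, and Ly6c2, the only higher one, and all 7 were separate in both states. Ankrd11, a chromatin regulator, and Tmem181b-ps, a pseudogene whose reads can come from its parent gene, were named after their values were seen. Ankrd11 averaged -1.03, at 147 and 158 against 93.2 and 105 CPM ex vivo and 77.5 and 65 against 27.3 and 25.5 CPM in vitro. Tmem181b-ps averaged -1.54, with 12 and 12.2 against 3.73 and 4.8 CPM ex vivo.

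A larger share of the genes near Cish on chromosome 9 was called than of other genes. Leaving Cish out, 34 of 125 tested genes within 5 Mb were called (27.2%), 37 of 162 within 10 Mb (22.8%, 13 higher and 24 lower) and 59 of 269 within 20 Mb (21.9%), beside 1875 of 12127 other autosomal genes (15.5%). Within 5 Mb 28 of the 34 were separate in both states, which is 22.4% of the genes there beside 10.2% of the others. No test of the difference was made. Glyctk, a glycerate kinase 1.14 Mb from Cish, averaged -1.35, at 4.8 and 5.57 against 2.76 and 2.64 CPM ex vivo and 6.01 and 4.88 against 1.77 and 1.44 CPM in vitro. Mapkapk3, a kinase downstream of p38 that starts just beside Cish, averaged -0.51 (SE 0.0692, edgeR adjusted p = 0.00872), at 47.7 and 47.4 against 32.1 and 31.6 CPM ex vivo and 134 and 114 against 90.5 and 90.7 CPM in vitro. Glb1, the lysosomal beta-galactosidase, averaged -0.84 with -0.97 ex vivo and -0.70 in vitro. Ifrd2, an inhibitor of translation, was higher with an average of 0.52, but its effect was 0.03 ex vivo and 1.01 in vitro. Mst1, the ligand of the receptor RON, was named after its values were seen. It was at 1.35 and 0.513 against 0 and 0.118 CPM ex vivo and at 0.452 and 0.246 against 0.0385 and 0 CPM in vitro, so its fold change rests on a handful of reads. Tmem158, Cxcr6 and Xcr1, described above, lie 15.96, 16.5 and 16.55 Mb from Cish. Among genes given below, Rrp9 and Lrrfip2 lie within 5 Mb of Cish, and Eomes, Bcl2a1b, Bcl2a1d and Nt5e within 20 Mb. Whether DNA carried along with the CIS-/- allele differs between the genotypes was not tested.

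**Figure D4:**
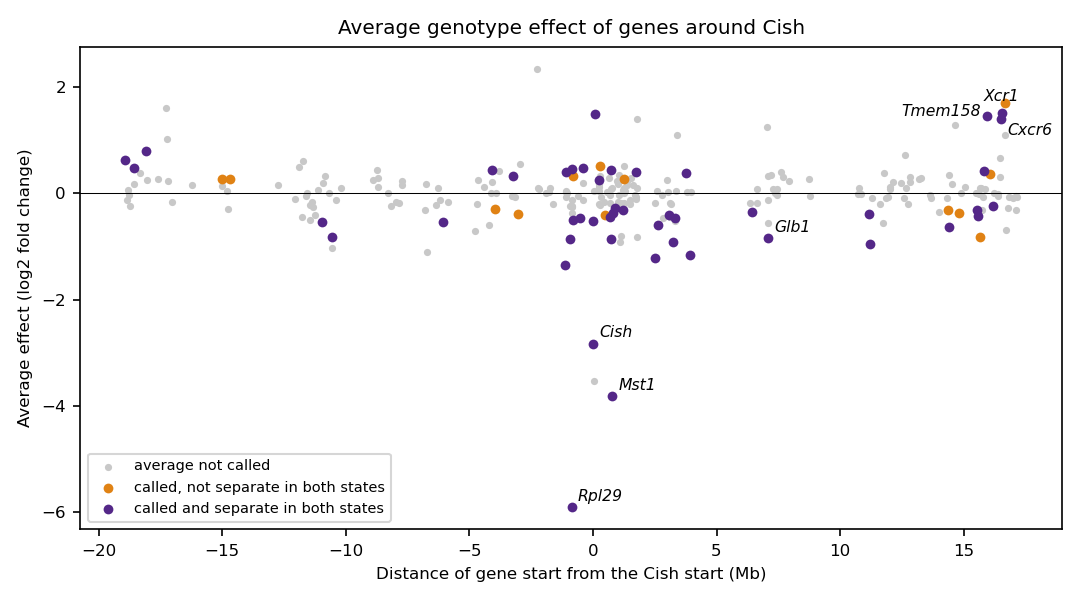
Average log2 effect of tested chromosome 9 genes by the distance in Mb between the nearest ends of the gene and Cish, although the axis names starts. Purple points are called and separate in both states, orange points called only and grey points not called. The 34 calls within 5 Mb include both directions, with Rpl29 at -5.90 the lowest.

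Genes were then read by role in 36 lists, and 94 of the 552 list members tested were called. Every list count stands beside 15.6% of all autosomal genes called, 6.21% higher and 9.4% lower, and a share near these is no result about a list. The list counts fell with the whole count, to 4 and 3 called members without either wild-type ex vivo library. In the JAK and STAT list 1 of 17 members was higher and 2 lower, a share near the 15.6% of all genes, with a median average of -0.21 that was -0.04 with the length trend removed. Il21r, the interleukin 21 receptor, was higher in both states, at 29.7 and 36.6 against 39.7 and 49.8 CPM ex vivo and 191 and 155 against 293 and 247 CPM in vitro, an average of 0.54. Stat2, a mediator of type I interferon signals, averaged -0.59 with -0.12 ex vivo and -1.06 in vitro. Tyk2, the kinase paired with many cytokine receptors, averaged -0.31, and -0.14 without a call (edgeR adjusted p = 0.147) with the length trend removed. Jak1 averaged -0.29 and Stat5b -0.21 without passing the test (edgeR adjusted p = 0.064 and 0.0521). Il2rb, the receptor chain shared by interleukins 2 and 15, was at 4213 to 4230 against 4041 and 4617 CPM ex vivo, with an average of 0.12 that did not pass (edgeR adjusted p = 0.333).

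Of the 17 SOCS family members and other brakes on JAK signalling 3 were called, all lower. Besides Cish these were Sh2b3, the adaptor LNK that restrains JAK signalling, with an average of -0.45, and Pias3, an inhibitor of STAT3, with -0.34. Sh2b3 was separate in both states, at 48.1 and 45.9 against 37.7 and 43.9 CPM ex vivo and 50.6 and 52.9 against 36.7 and 27.4 CPM in vitro. Pias3 had an effect of 0.03 ex vivo and -0.71 in vitro. The closest relatives of Cish did not pass the test. Socs2 averaged -0.18 (SE 0.116), Socs3 -0.10 (SE 0.13) and Socs1 -0.01 (SE 0.0955).

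Of 21 known STAT5 target genes tested 3 were higher and 0 lower in edgeR, a share near the 15.6% of all genes, with 6 at an unadjusted p under 0.05, and DESeq2 called 4 higher and 2 lower. The median average was 0.03, beside 0.0067 over all autosomal genes, and it was -0.05 with scaling by library totals. Tnfrsf9, whose motif is shown above, was at 130 and 133 against 136 and 142 CPM ex vivo and at 1306 and 1277 against 1945 and 2316 CPM in vitro, an average of 0.40 (SE 0.0754, edgeR adjusted p = 0.018). The others were Gzmb and Prf1. Pim1, a kinase induced by STAT5, averaged 0.03, Bcl2, the survival factor, -0.28 and Myc, the growth regulator, -0.24, and none of them passed.

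Of 22 cytotoxic granule genes and death ligands 5 were higher and 0 lower in edgeR, beside 6.21% of all genes higher, with 10 at an unadjusted p under 0.05, and 6 higher and 0 lower in DESeq2. Removing the length trend gave 4 higher and 1 lower calls. Gzmb, the protease granzyme B, was at 875 and 1034 against 986 and 1006 CPM ex vivo, where the genotypes overlapped, and at 11123 and 12008 against 24149 and 24977 CPM in vitro. Its average of 0.57 (SE 0.0805, edgeR adjusted p = 0.00964) thus joined 0.06 ex vivo and 1.09 in vitro. Gzma, granzyme A, was separate in both states, at 9596 and 9765 against 11474 and 9993 CPM ex vivo and at 13997 and 11678 against 20327 and 25875 CPM in vitro, an average of 0.50. Srgn, the proteoglycan that packs granules, averaged 0.40 and was separate in both states. Both kept their calls with the length trend removed at smaller averages, 0.29 for Gzma and 0.20 for Srgn. Prf1, the pore-forming protein perforin, averaged 0.34 and was at 2332 and 2374 against 2300 and 2631 CPM ex vivo, where the genotypes overlapped.

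Of 13 cytokine and chemokine genes 3 were higher and 0 lower in edgeR, with 5 at an unadjusted p under 0.05 and 5 higher in DESeq2. With the length trend removed edgeR called 0 of them. Xcl1, the ligand of XCR1, was at 133 and 144 against 172 and 156 CPM ex vivo and at 1828 and 1927 against 2655 and 2832 CPM in vitro. Its average was 0.40, and 0.14 (edgeR adjusted p = 0.214) with the length trend removed. Csf2, which encodes GM-CSF, averaged 0.75 at 1.89 to 2.91 CPM ex vivo, and Flt3l, a growth factor of dendritic cells, 0.26, against 0.58 and 0.09 with the trend removed. Ifng, the main effector cytokine of NK cells, was at 58.8 and 53.1 against 48.5 and 61.5 CPM ex vivo and 66.2 and 81.7 against 147 and 109 CPM in vitro, with an average of 0.38 that did not pass (edgeR adjusted p = 0.0685).

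Of 17 activating receptors and adaptors only Klrb1f, a C-type lectin receptor of the NKR-P1 family, was called by edgeR, and it was lower, beside 9.4% of all genes. Klrb1f was at 237 and 235 against 241 and 215 CPM ex vivo and at 222 and 227 against 109 and 110 CPM in vitro, so the average of -0.54 came from in vitro cells, and the difference between states passed the test (edgeR adjusted p = 0.0345). Ncr1, the receptor NKp46, averaged -0.14 and Klrk1, the receptor NKG2D, -0.08, neither of which passed. Of 13 inhibitory receptors Klrg1, a marker of terminal maturation, and Klrc1, which encodes NKG2A, were higher, beside 6.21% of all genes. Klrg1 was separate in both states, at 253 and 257 against 309 and 386 CPM ex vivo and at 15.6 and 8.43 against 19.1 and 22.2 CPM in vitro. Neither Klrg1 nor Klrc1 kept its call with the length trend removed (edgeR adjusted p = 0.089 and 0.41).

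In the TNF family 2 of 14 members were higher, Tnfrsf9 and Tnfsf4, which encodes OX40 ligand. Tnfsf4 was at 0.842 and 0.632 against 2.26 and 2.36 CPM ex vivo and at 12.1 and 10.3 against 13 and 15.2 CPM in vitro, an average of 0.99. Of 16 BCL2 family members Bcl2a1b and Bcl2a1d, near-identical copies of the survival gene A1 that can share reads, were higher in both states, and Bbc3, which encodes the death effector PUMA, was lower. Bcl2a1b averaged 0.80, at 10.7 and 9.24 against 15.4 and 13.2 CPM ex vivo and 37.6 and 32.1 against 72.3 and 74.8 CPM in vitro. Bcl2a1d averaged 0.47, and 0.26 without a call with the length trend removed (edgeR adjusted p = 0.0996). Bbc3 averaged -0.35, with -0.03 ex vivo and -0.68 in vitro. Rgs16, a brake on G protein signals, was the only member of 14 called in the list of ERK and calcium feedback genes, with 0.67 ex vivo and 0.65 in vitro.

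Of 22 lineage transcription factors 6 were lower and 1 higher, beside 9.4% and 6.21% of all genes. The median was -0.30, and it was -0.17 with 3 lower and 2 higher calls once the length trend was removed. Eomes, which with T-bet sets the NK cell programme, was at 736 and 662 against 616 and 590 CPM ex vivo and at 183 and 166 against 124 and 109 CPM in vitro. Its average was -0.39 (SE 0.0762, edgeR adjusted p = 0.0189). Ets1, needed for NK cell development, averaged -0.39 as well, at 1828 and 1841 against 1507 and 1677 CPM ex vivo and 713 and 745 against 542 and 443 CPM in vitro, and -0.21 (edgeR adjusted p = 0.0497) with the length trend removed. Bach2, a repressor that keeps lymphocytes quiescent, averaged -0.76, and -0.40 (edgeR adjusted p = 0.0523) with the length trend removed. Tbx21, which encodes T-bet, averaged -0.12 and did not pass. Id3, an inhibitor of E proteins, was the higher one, at 1.05 and 0.75 against 2.39 and 1.65 CPM ex vivo and with 2 and 0 counts in wild-type against 19 and 30 counts in CIS-null libraries in vitro, too few reads to size the change. Itga2, the CD49b chain used to purify the cells, was lower, at 274 and 277 against 235 and 244 CPM ex vivo and at 21.2 and 18.2 against 10 and 7.13 CPM in vitro, an average of -0.70 (edgeR adjusted p = 0.0109). Zeb2, a factor of late maturation, averaged -0.66 and overlapped between genotypes ex vivo, and it was at -0.28 without a call (edgeR adjusted p = 0.0759) with the length trend removed. Of 16 tissue residency genes Cxcr6 was higher, and Rora, a nuclear receptor, and Ahr, the aryl hydrocarbon receptor, a ligand-activated transcription factor, were lower with averages of -0.68 and -0.27, of which only Rora kept its call with the length trend removed.

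Ribosome biogenesis and amino acid genes had higher calls, beside 6.21% of all genes, mostly with the larger effect in vitro. Of 21 ribosome biogenesis and MYC target genes 9 were higher and 0 lower in edgeR, 17 had an unadjusted p under 0.05, and DESeq2 called 9 higher and 2 lower. The list had 10 higher calls with the length trend removed. Its median was -0.02 ex vivo and 0.53 in vitro, and 0 of the called members were separate in both states. Srm, the spermidine synthase, was at 14.6 and 12.7 against 11.1 and 13.1 CPM ex vivo and at 53 and 58.7 against 117 and 120 CPM in vitro. The averages were 0.46 for Srm, 0.46 for Wdr12, 0.33 for Nop56 and 0.33 for Rrp9, genes that process ribosomal RNA except for Srm. Rrp9, which lies within 5 Mb of Cish, was at 0.21 with the length trend removed. Of 23 amino acid transport and ATF4 genes 5 were higher and 0 lower in edgeR, 10 at an unadjusted p under 0.05, with 8 higher in DESeq2 and a median of -0.10 ex vivo and 0.50 in vitro. Slc3a2, the heavy chain of the CD98 transporter, averaged 0.41 and Ddit4, an inhibitor of mTORC1, 0.30, and both were separate in both states. Atf4, the factor itself, averaged 0.34 with -0.02 ex vivo and 0.70 in vitro, and lost its call with the length trend removed (0.25, edgeR adjusted p = 0.0523). Slc7a6, a cationic amino acid transporter, averaged 0.28.

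Of 20 glycolysis genes 4 were higher and 1 lower, and with scaling by library totals 1 and 1, and with the length trend removed 5 and 0. Ldha, lactate dehydrogenase, was at 378 and 390 against 428 and 369 CPM ex vivo and at 1056 and 1125 against 1660 and 2036 CPM in vitro, an average of 0.41. Aldoa, an aldolase, and Slc16a1, a lactate transporter, averaged 0.34 each, and Hk1, hexokinase 1, was lower at -0.35, and at -0.20 without a call (edgeR adjusted p = 0.0729) with the length trend removed. Of 29 respiratory chain genes 27 had the same sign in both states, 24 had an unadjusted p under 0.05 and a median average of 0.27 was seen, but only Ndufs3 of complex I and Atp5b of ATP synthase were called by edgeR, beside 16 in DESeq2. With the length trend removed edgeR called 0 of them, the median was 0.07, and Ndufs3 and Atp5b averaged 0.15 and 0.19. Of 24 sterol and fatty acid genes 1 was higher and 1 lower, beside 6.21% and 9.4% of all genes. Scd1, a desaturase, was the higher one with an average of 1.13, although its ex vivo CIS-null libraries were at 16.5 and 5.94 CPM. Fasn, the fatty acid synthase, averaged -0.40 and was at 0.02 with the length trend removed, which ended its call.

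Of 26 genes of G2/M and mitosis 5 were lower and 0 higher in edgeR, beside 9.4% of all genes lower, 12 had an unadjusted p under 0.05, and DESeq2 called 7 lower and 0 higher. The median average was -0.37, -0.15 ex vivo and -0.64 in vitro, and it was -0.35 with 4 lower calls once the length trend was removed. Cenpf and Cenpe, kinetochore proteins, averaged -1.23 and -1.37, Anln, an actin scaffold of cytokinesis, -0.66 and Kif23, a kinesin of the midbody, -0.63. Anln was separate in both states, at 3.32 and 4.22 against 2.21 and 2.99 CPM ex vivo and at 31.2 and 30.3 against 18.2 and 17.5 CPM in vitro. For Cenpe the ex vivo CIS-null libraries were at 0.507 and 2.52 CPM around a wild-type range of 2.23 to 3.28, and the call was lost with the length trend removed (edgeR adjusted p = 0.0601), where Cenpf averaged -0.78 and was called. The list had 0 calls in edgeR without either wild-type ex vivo library, without wild-type in vitro replicate 1 or without CIS-null in vitro replicate 2, and 21 without CIS-null ex vivo replicate 2, with medians from -0.68 to -0.16 as each library was left out. Other mitotic regulators of the list did not pass, such as the cyclin gene Ccnb1 at -0.04 and its kinase Cdk1 at 0.04. Of 25 S phase genes 2 were lower and 0 higher in edgeR, with 6 at an unadjusted p under 0.05 and 4 lower and 1 higher in DESeq2. They were Pole, the catalytic subunit of DNA polymerase epsilon, at -0.66, and -0.37 with the length trend removed, and Rfc1, a clamp loader, at -0.80.

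Of 29 interferon-stimulated genes 5 were lower and 1 higher, beside 9.4% and 6.21% of all genes. Ifit2, an inhibitor of viral translation, was at 56.6 and 62.3 against 46.3 and 48.1 CPM ex vivo and at 9.98 and 10.4 against 5.97 and 4.93 CPM in vitro, an average of -0.62 (SE 0.0823, edgeR adjusted p = 0.00845). Ddx58, the RNA sensor RIG-I, averaged -0.39 (-0.22 with the length trend removed), and Isg20, an exonuclease, was higher at 0.60. Of 20 genes of MHC class I and antigen loading 5 were higher and 0 lower in edgeR, with 10 at an unadjusted p under 0.05 and 8 higher in DESeq2, and 2 were called with the length trend removed. H2-Q7, a class Ib molecule whose paralogs can share reads, averaged 0.45, Calr, the chaperone calreticulin, 0.31, and the immunoproteasome subunits Psmb8 and Psmb10 0.31 and 0.27. With the length trend removed Psmb8 was at 0.16 and Psmb10 at 0.12, and neither was called (edgeR adjusted p = 0.0929 and 0.144).

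Of 22 PI3 kinase and mTOR genes 8 were lower and 1 higher as scaled, beside 9.4% of all genes called lower. With the length trend removed 1 was lower and 1 higher, and the median went from -0.22 to 0.0039. Mtor, the kinase itself, was at 32.6 and 39.2 against 28.7 and 32.1 CPM ex vivo and at 37.6 and 39.3 against 26.1 and 20.9 CPM in vitro. Its average was -0.47, and -0.11 (edgeR adjusted p = 0.339) with the trend removed. Rictor, a subunit of mTORC2, averaged -0.44 and Pik3cg, a catalytic subunit of PI3 kinase, -0.41, and both lost their call in the same way. Pik3r2, a regulatory subunit, kept its call at -0.59, beside -0.64 as scaled.

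In 2 lists no member was called by edgeR. Of 20 AP-1 and immediate early genes 1 had an unadjusted p under 0.05, and limma-voom and DESeq2 also called 0. Their lowest p-values belonged to Atf3, with an average of 0.63 (SE 0.259, edgeR adjusted p = 0.123), and Fosl2, with 0.19 (SE 0.107). Of 15 TGF-beta and SMAD genes 4 had an unadjusted p under 0.05, DESeq2 called 2 lower and limma-voom 1 lower. Smad7, the inhibitory SMAD, averaged -0.37 (SE 0.107, edgeR adjusted p = 0.0512) and Smurf1, a ubiquitin ligase, -0.32 (SE 0.101, edgeR adjusted p = 0.0631).

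**Figure D5:**
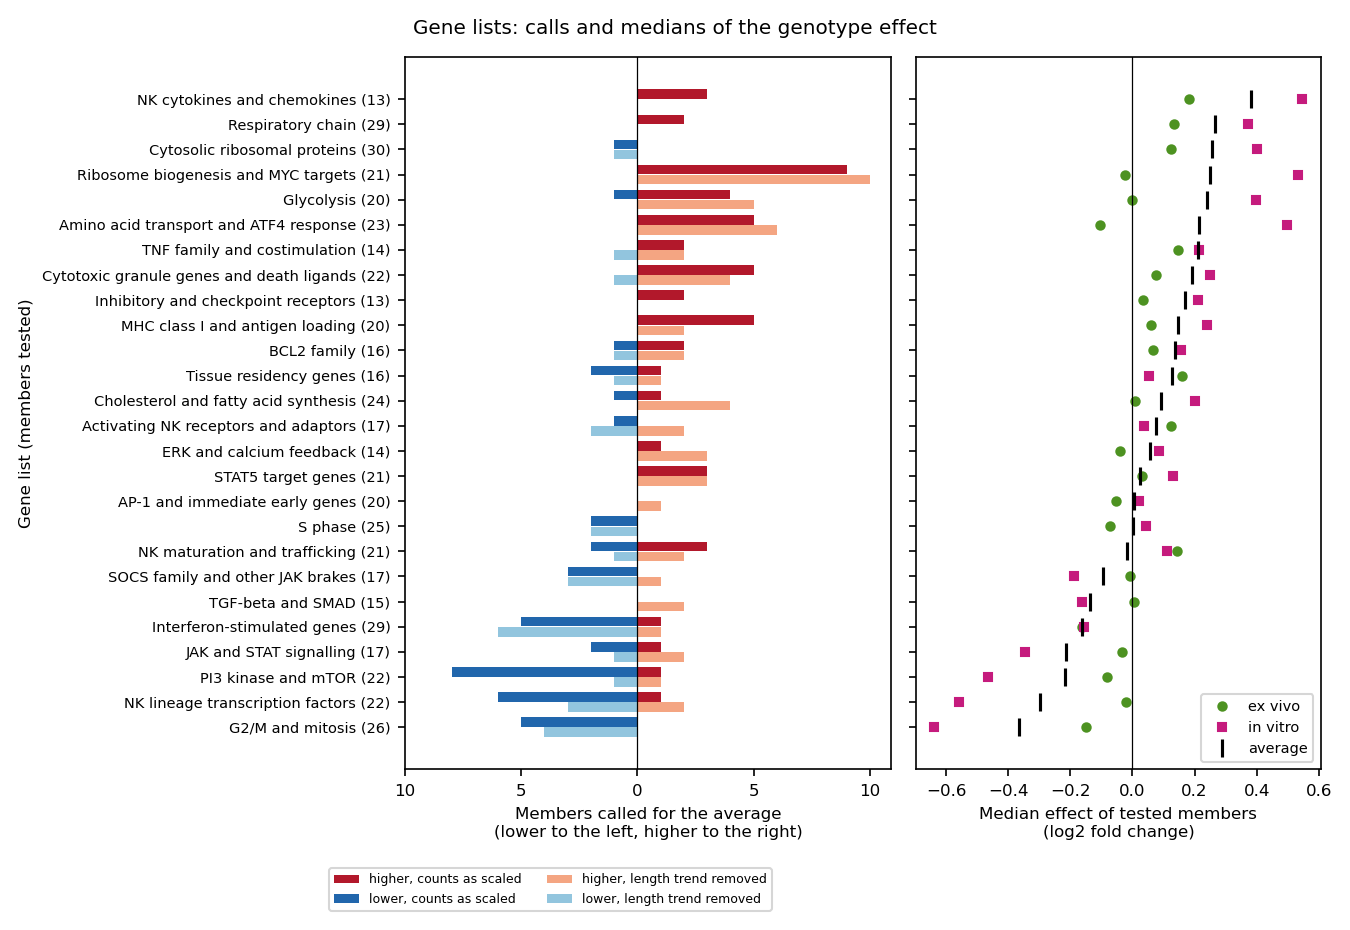
Left, members of each gene list called lower (to the left of 0) or higher (to the right), dark bars for counts as scaled and pale bars with the length trend removed, with the number tested after each name. Right, the median log2 effect of tested members ex vivo, in vitro and averaged. The 8 lower calls among PI3 kinase and mTOR genes became 1, while the 9 higher calls among ribosome biogenesis genes became 10.

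Neither state alone called 133 of the average calls, 83 higher and 50 lower. Of these 128 were separate in both states, beside 66.6% of all 1935 average calls and 10.4% of all genes tested. A call on the average alone favours genes with like effects in both states, so a higher share is built into the choice. With the length trend removed 58 of the 133 remained called, beside 1140 of the 1935. Tnfsf4 and Xcr1, described above, were among the 133. Others were named after their values were seen. Acp5, a phosphatase of activated macrophages and osteoclasts, averaged 0.52, at 99.3 and 97.9 against 117 and 170 CPM ex vivo and 16.3 and 14.2 against 23.3 and 19.8 CPM in vitro. Nt5e, the ectoenzyme CD73 that makes adenosine, averaged 0.64, and Ncf1, a subunit of the phagocyte oxidase, 0.68. With the length trend removed Nt5e and Ncf1 kept their calls and Acp5 did not. For these 3 genes the effects were 0.54 and 0.50, 0.86 and 0.41, and 0.81 and 0.55 in the ex vivo and in vitro cells.

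The average also hid genes whose effects opposed each other. The order of the sex-linked transcripts also turned between the states, so genotype and donor sex cannot be told apart in these differences. Sdc4, the heparan sulfate proteoglycan syndecan 4, was higher ex vivo, at 25.7 and 30 against 67.5 and 62.7 CPM, and lower in vitro, at 84.6 and 83.7 against 34.9 and 26.9 CPM. Its state effects were 1.23 and -1.45, its average -0.11 (SE 0.0951), and the difference between states passed the test (edgeR adjusted p = 0.000915). Lrrfip2, an adaptor of Toll-like receptor signalling, lies on chromosome 9 within 5 Mb of Cish. It was lower ex vivo, at 64.8 and 64 against 44.4 and 45.3 CPM, and higher in vitro, at 23.4 and 20.1 against 32 and 33.4 CPM. Its average was 0.04. Among average calls with a tested difference between states, named after their values were seen, Dscam, a cell adhesion molecule, had an effect of 0.13 ex vivo and -2.40 in vitro. Il18r1, a chain of the interleukin 18 receptor, was at 459 and 436 against 460 and 450 CPM ex vivo and at 178 and 149 against 71.8 and 71.2 CPM in vitro. Zhx2, a repressor of late NK cell maturation, had an effect of -0.07 ex vivo and -1.27 in vitro.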

How the data were processed

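RNA of 8 NK cell libraries was sequenced, 2 for each genotype and state. Raw read counts per gene were deposited by the authors. A table of log2 RPKM values was also deposited by the authors and served only as an alternative. Reads were aligned to GRCm38/mm10 with Subread and assigned to genes with featureCounts, and limma was used, per the submitters' processing notes, which give no versions. Strand and the treatment of reads that match several genes were not given in the sources used here.

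Counts were scaled by TMM in edgeR 4.0.16 (R 4.3.3) and genes were kept with filterByExpr (minimum count 10, minimum total 15). A quasi-likelihood model with 1 mean per group left 4 residual degrees of freedom. The average of both genotype effects, each state effect and their difference were tested, with Benjamini-Hochberg adjustment over 13184 genes and a threshold of 0.05. The code was tested on simulated data. The members and gene lists were chosen with earlier results of these data known.

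Named genes were Cish, the 12 separate genes per direction with the largest lesser state effect, the 6 largest averages per direction (both at a mean of at least 5 CPM), up to 3 opposed genes, up to 4 called genes per list by lowest p (or 2 uncalled ones where none was called), up to 4 within 10 Mb of Cish and 5 sex-linked genes. Genes outside the rule, among them uncalled list members given as values, were chosen after their values were seen. Predicted genes and receptor segments were counted and not named, and 1 gene that the rule names is not reported here. Positions, lengths and promoters came from RefSeq for GRCm38.p6, which matched 25271 of 27179 genes. The length trend was removed per library with a spline of 4 degrees of freedom.

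Replicate numbers were not shown to pair libraries. Alternatives were other scalings, filters, DESeq2 1.42.0, limma 3.58.1 (voom and log2 RPKM), robust spread, an additive model, a replicate block, and each library left out.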

Additional observations from a re-analysis of the deposited data

Results flagged for a closer look

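For 10 named genes the genotype effect differed between in vitro and ex vivo cells by edgeR's test of the difference itself, given here as the in vitro minus the ex vivo log2 effect with the adjusted p. The 2 genes that the average cancelled were Sdc4 at -2.67 (adjusted p = 0.000915) and Lrrfip2 at 1.11 (adjusted p = 0.0345). Among genes with a called average it was -0.989 for Klrb1f (adjusted p = 0.0345), 1.26 for Srm (adjusted p = 0.0389) and 2.39 for Cd3g (adjusted p = 0.0296).

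The sex-linked genes had the largest differences among the named genes. Xist was at 21.4 (edgeR adjusted p = 2.11e-06), Eif2s3y at -13.8 (1.4e-05), Ddx3y at -13.0 (9.54e-05), Uty at -14.7 (9.54e-05) and Kdm5d at -12.1 (6.52e-05). These sizes rest on groups at or near 0 counts and on the prior count of the fit, so they are no measure of fold. In neither state can genotype and donor sex be told apart, nor can they be in the differences between states.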

How the results depend on the processing

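As scaled, 1935 genes were called (770 higher, 1165 lower), 1288 of them separate in both states (535 higher, 753 lower), 9 also called for the difference between states and 94 in the lists. The ex vivo comparison called 7 and the in vitro comparison 3257. Scaling by library totals gave 369 higher calls, 241 of them separate. DESeq2 gave 1209 higher, 458 also called for the difference, 38 ex vivo and 160 in the lists. The additive model gave 47 (25 higher, 22 lower), 6 in the lists. An adjusted p under 0.01 left 102 (21 higher, 81 lower), 91 separate (17 higher, 74 lower), 0 also called for the difference, 2 ex vivo, 857 in vitro and 10 in the lists. Calls shared with the difference numbered 55 with no low-count filter, 14 with at least 5 CPM in 2 libraries, 20 without receptor segments and haemoglobin, 99 with the length trend removed, and 0 by limma on log2 RPKM or with autosomal genes alone. Ex vivo calls numbered 19 with no filter and 12 with the length trend removed. The causes were not tested.

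The replicate block gave 957 calls (307 higher, 650 lower), 710 separate (226 higher, 484 lower), 0 also called for the difference, 4 ex vivo and 59 in the lists. The correlation of replicate differences between groups ran from -0.232 to 0.146, so the numbers were not shown to pair the libraries.

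Leaving out 1 library at a time gave 9 to 3434 calls, 3 to 1634 higher and 6 to 1800 lower. Of these 9 to 3215 were separate, 3 to 1530 higher and 6 to 1685 lower. Calls shared with the difference ran from 0 to 330, ex vivo calls from 2 to 38, in vitro calls from 482 to 4136 and list calls from 3 to 197. Cish ran from -3.14 to -2.63 and kept its call throughout.

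In 2 alternatives chosen after seeing the data, the length trend was removed and a library left out. Without CIS-null ex vivo replicate 1 there were 1177 calls (566 lower, 432 of the lower ones separate), 258 also called for the difference and 21 ex vivo. Without CIS-null in vitro replicate 2 there were 430 calls (214 higher, 216 lower), 349 separate (172 higher, 177 lower), 2 also called for the difference, 3 ex vivo, 647 in vitro and 26 in the lists. Of the named genes with a called average Fasn alone reversed, to 0.0227 with the length trend removed and to 0.0285 with CIS-null in vitro replicate 2 also left out. Reversals of named genes without a call were not recorded.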
